A study of Mus musculus with 8 samples.

Results

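The Reg4-high secretory cells of the mouse large intestine were taken from a droplet single-cell RNA library of sorted large intestinal tissue. A barcode belonged to them if it had at least 500 genes, at most 20% mitochondrial unique molecular identifiers (UMIs), at least 10 Reg4 UMIs per 10000 and fewer than 10 Chga and Chgb UMIs together. The rule gave 915 of the 6188 barcodes within the limits on genes and mitochondrial UMIs (14.8%), of 8646 deposited for this library and 19539 in the 4 cell libraries of the series. The members were set against 1132 low-Reg4 goblet barcodes, which had at least 10 UMIs per 10000 of Muc2, Fcgbp and Clca1 together and under 10 of Reg4. A further 3334 barcodes with an Epcam UMI were called other epithelial, and 650 without one and with at least 3 UMIs of leukocyte, endothelial or fibroblast markers were called non-epithelial. Of these 650, 27 also passed the goblet limit and were counted in both groups.

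The series compared mouse intestinal cells in tissue and in culture. Its other cell libraries came from sorted small intestinal tissue and from small intestinal organoids at passage 1, grown alone or in coculture, with 16 wells pooled for each. Visium spatial libraries were made from 10 µm cryosections of large and small intestine, 2 technical duplicates of each. All samples were labelled C57BL/6, and the study's description also names Lgr5-eGFP-ires-CreERT2 mice on that background. Which animals, how many and of what age gave each tissue library was not given in the sources used here. The tissue sort joined live cells with enriched LGR5+ stem cells and CD31+ PDPN+ LYVE1+ lymphatic endothelial cells, so that shares of barcodes describe the sorted library and not the tissue. With 1 large intestinal cell library there was no replicate of any comparison between barcodes and no test was made. The intervals given are exact 95% intervals of counts, ratios of counts or shares, and cover counting error only.

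Deep crypt secretory cells sit between the Lgr5+ stem cells at the base of colonic crypts and are regarded as the colon's counterpart of the Paneth cells of the small intestine. They belong to the Atoh1-dependent secretory lineage with the goblet cells, which make the Muc2 mucus gel, and they are known to present Notch ligands and epidermal growth factor to stem cells. Reg4 is a secreted C-type lectin that has been used to mark and ablate them. Posterior Hox genes such as Hoxb13 and Hoxd13 are active towards the tail end of the body axis, and the colon's segments differ in them.

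The promoters of Reg4 and of 4 genes whose levels differed among the members are shown as the 200 bases before the outermost RefSeq start (GRCm38.p6), 5′ to 3′ on the gene's strand. Sct and Gal3st2c were high in members with little Hoxb13, and Cma1 and Mptx1 in members with much of it. Capitals mark matches, on either strand, to the forkhead core TGTTTAC, the GATA core GATAA, the E-box CAGCTG or the caudal-type core CAATAAA. No match overlapped another.
Reg4, chr3:98221938-98222137, plus strand: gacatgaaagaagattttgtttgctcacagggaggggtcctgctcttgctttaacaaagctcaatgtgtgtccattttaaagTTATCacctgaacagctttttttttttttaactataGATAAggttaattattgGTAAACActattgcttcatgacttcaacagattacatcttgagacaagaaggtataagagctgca
Sct, chr7:141279175-141279374, minus strand: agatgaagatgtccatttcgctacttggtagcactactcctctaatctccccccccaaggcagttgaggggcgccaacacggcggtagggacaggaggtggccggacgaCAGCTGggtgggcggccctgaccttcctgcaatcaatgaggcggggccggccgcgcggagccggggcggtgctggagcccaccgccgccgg
Gal3st2c, chr1:93990305-93990504, plus strand: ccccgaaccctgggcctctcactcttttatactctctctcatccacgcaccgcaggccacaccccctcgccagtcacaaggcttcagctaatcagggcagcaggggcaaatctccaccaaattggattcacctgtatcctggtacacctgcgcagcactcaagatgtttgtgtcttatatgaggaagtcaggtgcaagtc
Cma1, chr14:55944676-55944875, minus strand: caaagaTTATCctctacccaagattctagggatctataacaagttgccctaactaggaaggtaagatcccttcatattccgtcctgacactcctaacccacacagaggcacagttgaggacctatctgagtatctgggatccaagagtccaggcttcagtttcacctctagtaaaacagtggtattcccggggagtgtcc
Mptx1, chr1:174330318-174330517, plus strand: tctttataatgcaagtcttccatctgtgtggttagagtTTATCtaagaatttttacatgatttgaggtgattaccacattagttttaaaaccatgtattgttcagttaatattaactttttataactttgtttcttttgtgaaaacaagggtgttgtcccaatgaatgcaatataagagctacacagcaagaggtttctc
The Reg4 window held GATAA 82 bases before the start on the gene's strand, and on the opposite strand GATAA at 118 and TGTTTAC at 65 bases. The Sct window held CAGCTG at 91 bases. The windows of Cma1 and Mptx1 held GATAA on the opposite strand, at 194 and 162 bases, where the printed strand reads TTATC, while the Gal3st2c window held none of these letters. Among the same windows of 21982 genes, 2.54% held TGTTTAC, 19.7% GATAA, 10.6% CAGCTG and 3.73% CAATAAA. The matches are a description of the letters and say nothing of binding.

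The members carried epithelial and secretory markers. An Epcam UMI was present in 883 of 915 (96.5%, 95.1 to 97.6%), and 841 also passed the goblet limit. Of the 9 markers listed for deep crypt secretory cells, the rules for the groups used Reg4 and Muc2. The other 7, Spink4, Kit, Cd24a, Agr2, Tff3, Spdef and Atoh1, were higher in the members than in the other epithelial barcodes, by log2 ratios from 0.92 for Cd24a to 6.33 for Spink4. The other epithelial barcodes had failed both the Reg4 and the goblet limit. Higher secretory markers in the members thus follow in part from the rules and are a description. The wider list of deep crypt secretory and niche genes, which holds Reg4 and Muc2, was mixed in that comparison. Of its 14 genes compared 10 lay above 0, with 7 2-fold higher and 4 lower, where 4860 of all 14143 genes lay above 0. Set against the low-Reg4 goblet barcodes, Kit and Cd24a, surface proteins used to sort these cells, stood at log2 ratios of 0.14 (0.04 to 0.25) and −0.46 (−0.50 to −0.42). Spink4 was higher, at 1.27 (1.26 to 1.27), and Atoh1 stood at 0.36, Tff3 at −0.15, Agr2 at −0.44 and Spdef at −0.77. Of the markers outside the rules only Spink4 thus differed by more than 2-fold from the goblet barcodes as a whole, and barcodes carry no position in the crypt.

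The members were selected on their Reg4 UMIs (ENSMUSG00000027876) and, to leave out endocrine cells, on Chga and Chgb, so these values are given as a description. Over the 724 members with at least 5000 UMIs it ran from 10.1 UMIs per 10000 to a median of 47.0 and a highest value of 499. Over all members the median was 42.2 and the highest 723, and 59 members passed with only 1 or 2 Reg4 UMIs. Summed over barcodes, Reg4 stood at 8198 CPM (UMIs scaled to a sum of 1000000 per group) in the members, 172 in the low-Reg4 goblet barcodes and 57.5 in the other epithelial ones. By summed CPM the mucin Muc2 (9205 against 13384 in goblet barcodes), the Fc-gamma-binding mucus protein Fcgbp (1141 against 1944) and the mucus-processing protein Clca1 (662 against 2001) were all lower in the members, with the goblet rule having used these genes. Medians over barcodes of at least 5000 UMIs differed from this. Fcgbp was higher in the members, at 3.57 against 1.52 UMIs per 10000, Clca1 was close, at 0.365 and 0.395, and Muc2 was lower, at 71.9 against 110. Just inside the limit, the 65 barcodes with 10 to 12 Reg4 UMIs per 10000 had 3474 CPM of Zg16, a mucus lectin that binds bacteria, and 19231 of Spink4, a goblet cell peptide. The 76 just outside, with 8 to 10, had 8018 and 17472 CPM. The limit therefore cut through a range without a gap, and 5 of 655 barcodes that met the non-epithelial limits also passed it and counted as members.

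**Figure D1:**
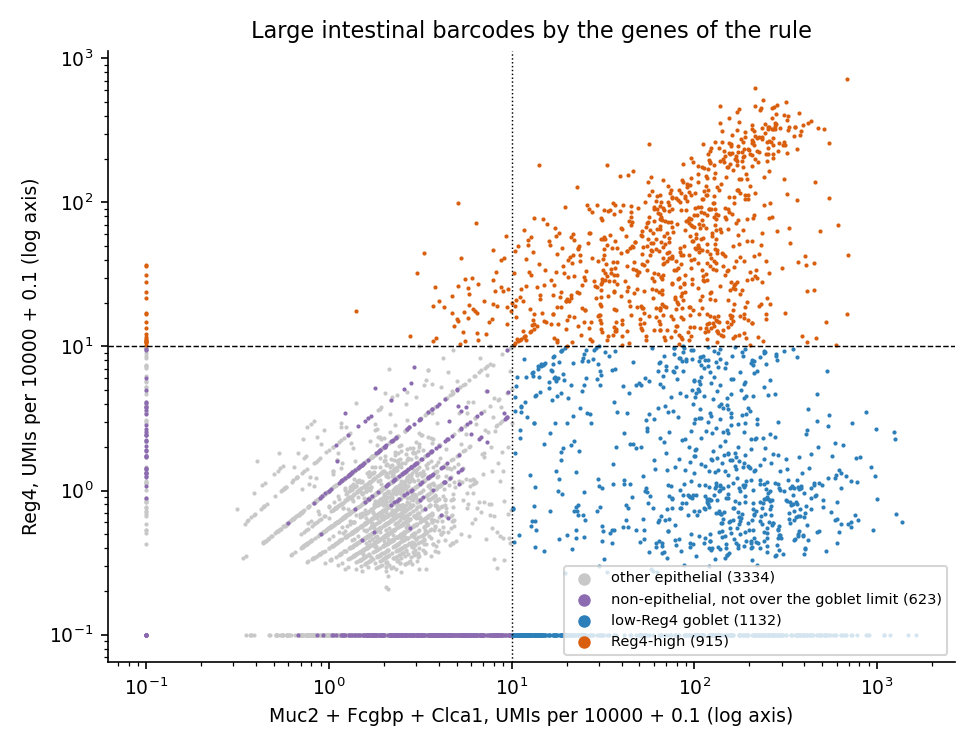
Each point is 1 barcode of the large intestinal cell library: the vertical axis gives Reg4 and the horizontal axis Muc2, Fcgbp and Clca1 together, both in UMIs per 10000 plus 0.1 on log axes, in 4 groups. The members lie above the limit of 10 Reg4 UMIs per 10000, and 841 of 915 also lie to the right of the goblet limit of 10.

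Depth was alike in the groups compared, and other cells' RNA was not. Median UMIs per barcode were 25152 in the members, 24632 in the low-Reg4 goblet barcodes, 24082.5 in other epithelial and 5520 in non-epithelial barcodes, but 191 members (20.9%) and 372 goblet barcodes (32.9%) had fewer than 5000. Summed immune markers stood at 2578 CPM in the members and 6258 in the goblet barcodes, endothelial markers at 29.7 and 72.4, and fibroblast and muscle markers at 117 and 95.1. The leukocyte marker Ptprc was at 2.30 and 4.73 CPM and the endothelial marker Pecam1 at 0.829 and 2.48, and of 21 immune markers 2 were at 0 in the members and 1 in the goblet barcodes. At least 2 UMIs of non-epithelial markers were found in 62 members (6.78%) and in 106 goblet barcodes (9.36%). The part of other cells' RNA in the ratios below was not tested. Leaving these barcodes out took the genes at least 2-fold lower in the members from 424 to 334 and those at least 2-fold higher from 128 to 116, and turned the sign of none of the 47 genes recomputed. The tissue libraries shared 25 barcodes, of which 1 was a member, and the organoid libraries shared 0.

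Against the low-Reg4 goblet barcodes, the members had more of Sct, Cma1 and Gal3st2c and less of defence and surface genes. Of 12063 genes with at least 50 UMIs over both groups, 128 were at least 2-fold higher (1.06%) and 424 at least 2-fold lower (3.51%), and the median log2 ratio over all genes was −0.04. The counts depended on the comparison group and the weighting: a goblet limit of 100 per 10000 gave 569 higher and 371 lower genes, and averaging each barcode's CPM gave 228 and 879. These ratios come from the contrast that chose the barcodes and support nothing by themselves. Of the genes with the highest ratios, Sct, the hormone secretin, stood at 477 against 87.9 CPM, a log2 ratio of 2.44 (2.38 to 2.51). Cma1, a chymase known from mast cells, stood at 99.8 against 9.08 CPM (3.46, 3.26 to 3.66), while the mast cell genes Cpa3 and Mcpt4 had 0 UMIs in the members. Gal3st2c, a galactose 3-O-sulfotransferase that can add sulfate to mucin sugars, stood at 146 against 34.0 CPM (2.10, 1.99 to 2.21). Its near-identical neighbours Gal3st2 and Gal3st2b, with which reads may be shared, had ratios of 1.01 and 1.30. The serine protease hepsin, Hpn (1.84), and the aminopeptidase Anpep (4.46) were also among them.

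The other genes had varied roles. Cldn14, a tight junction claudin, was at 71.3 against 14.8 CPM (2.27), and the lectin-like Chodl at 17.2 against 2.17 (2.98). Lix1 had a ratio of 3.37, Serpina9 1.60 and Cfap410 1.54. Among barcodes with at least 1 Hoxb13 UMI per 10000, a range described further on, Cfap410 was at 0.23 (−0.26 to 0.73). Pdlim4 had a ratio of 1.54 from summed UMIs but −0.14 when each barcode's CPM was averaged, and stood at 6.54 CPM in the members and 124 in non-epithelial barcodes. C1qa (ENSMUSG00000036887), a chain of the complement protein C1q that macrophages make, stood at 112 against 7.88 CPM (3.82, 3.62 to 4.04) and had a UMI in 269 members. Its partner chains did not share this: C1qb was at 2.99 against 5.08 CPM and C1qc at 1.34 against 4.66. In the non-epithelial barcodes C1qa was at 755 CPM.

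Among the 15 genes with the lowest ratios were defence and surface genes. Spink1, a trypsin inhibitor, stood at 130 CPM in the members and 1431 in the goblet barcodes (−3.46, −3.52 to −3.41). The bactericidal lectin Reg3g was at 322 and 2383 CPM (−2.89), the acute-phase protein Saa1 at 11.0 and 199 (−4.18), and the tryptophan-degrading enzyme Ido1 at 6.45 and 122 (−4.24). These sums leaned on few barcodes: 50% of goblet UMIs came from 9 for Saa1, 16 for Ido1 and 31 for Spink1, and 1 member held 1713 of 6994 Reg3g UMIs. Over barcodes of at least 5000 UMIs, medians in members and goblet barcodes were 0.49 and 1.24 UMIs per 10000 for Reg3g and 0.32 and 0.66 for Spink1. Krt20, a keratin of mature surface cells, was at 7.74 and 60.4 CPM (−2.96), and Mmp7, a matrix metalloproteinase that activates defensins in Paneth cells, at 9.21 and 79.0 (−3.10). The ratio of Mmp7 was 1.51 (0.80 to 2.29) among barcodes with at least 1 Hoxb13 UMI per 10000 and −3.27 among those with fewer, a division described further on. Atp6v0a4, a proton pump subunit, had the lowest ratio of the 15 at −4.94, and Plet1 stood at −2.48. Slfn4, Vipr2, Serpina10, Rgs17, Sprr2a3 and Ms4a7 had ratios from −2.97 to −2.49. Iglc1, an immunoglobulin light chain of plasma cells at −2.96, drew 8933 of its 12382 goblet UMIs from 1 barcode.

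**Figure D2:**
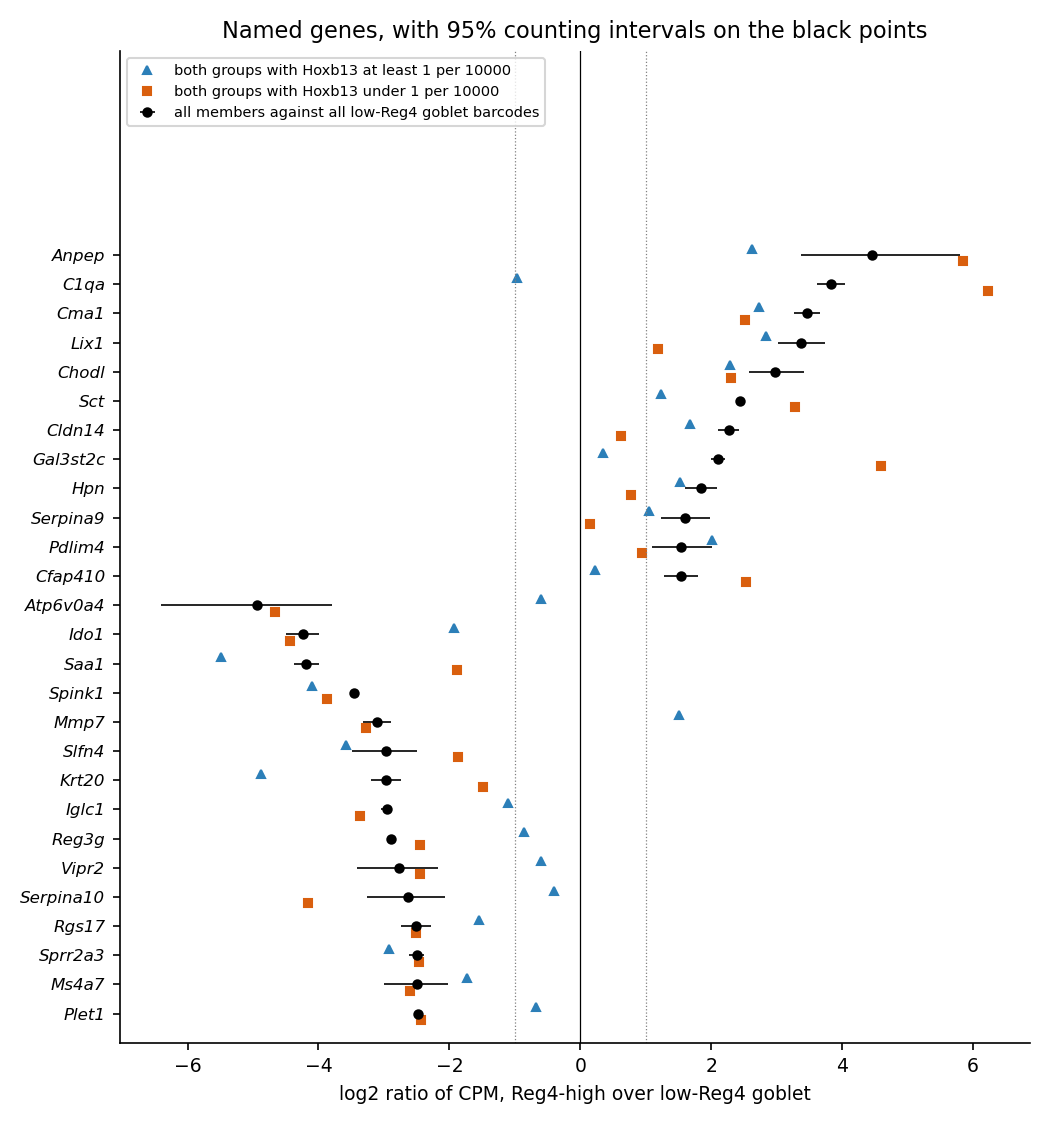
The log2 ratio of CPM in Reg4-high over low-Reg4 goblet barcodes is given on the horizontal axis for the genes named from the top and bottom of the comparison. Black points are all barcodes with 95% counting intervals, blue triangles are barcodes with Hoxb13 at least 1 per 10000 in both groups and orange squares are those under 1. C1qa is at 3.82 over all barcodes, at −0.96 in the blue and at 6.24 in the orange comparison.

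By gene list, surface and defence genes and several lists of other cells' markers had medians well under that of all genes. Genes of the secretory machinery lay mostly a little under 0. Of the other cells' lists the medians were −1.96 for 7 tuft cell, −1.36 for 4 red blood cell, −1.30 for 10 endothelial and −1.04 for 13 immune genes, and that of 7 Paneth cell genes was −0.89. Fibroblast and muscle genes went the other way, with 9 of 12 above 0 (median 0.20), and 9 enteroendocrine genes had a median of −0.15. Of 27 genes of goblet mucus and secreted proteins, 1 was 2-fold higher and 4 lower, with a median log2 ratio of −0.28. Zg16 stood at 2072 against 10898 CPM (−2.40), the lectin Itln1 at −1.61 and the ribonuclease Ang4 at −1.24. The trefoil peptide Tff3 was at −0.15 and the anti-helminth peptide Retnlb at 0.21 over all barcodes, but by Hoxb13, high and low, Tff3 was at −1.52 and 1.39 and Retnlb at −0.95 and 1.08. The summed Zg16 value hid a skew, since its median per barcode was 1.11 UMIs per 10000 in members of at least 5000 UMIs and 1.25 in goblet barcodes, with highest values of 1287 and 3105. The groups overlapped over most of that range. Of 20 surface colonocyte genes, 0 were 2-fold higher and 8 lower (median −0.72), and of 20 Reg lectins and antimicrobial proteins 2 were higher and 10 lower (median −0.97). The 2 were Lyz1, the Paneth cell lysozyme, at 36.0 against 5.28 CPM (2.77), and Reg4, which the rule used. That of Lyz1 rested on few barcodes: 80 members had a UMI (8.74%), 5 of them held 50% of its 781 UMIs, and 75 of its 136 goblet UMIs came from 1 barcode. Of 33 genes of protein folding in the endoplasmic reticulum none was 2-fold different, but 29 had a ratio under 0 (median −0.33), as had 20 of 22 genes of secretion and vesicle release (median −0.30). Of 24 secretory transcription factors 18 had a ratio under 0, with 1 2-fold higher and 4 lower. Over all genes 6710 of 12063 had a ratio under 0.

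Genes of the crypt niche were mixed. Of 12 deep crypt secretory and niche genes compared, 3 were 2-fold higher and 2 lower, with 6 above and 6 below 0 (median −0.02), where 5353 of all 12063 genes lay above 0. Among Notch pathway genes 1 of 12 was 2-fold higher, the ligand Dll1, at 20.4 against 8.81 CPM (1.22, 0.98 to 1.45). The ligand Dll4 had a ratio of 0.76 and Egf, the growth factor supplied to stem cells, 0.28 (−0.04 to 0.61). The EGF receptor ligands Areg and Hbegf were lower, at −2.48 and −1.66. Atoh1, which specifies the secretory lineage, had a ratio of 0.36, Spdef, which drives goblet maturation, −0.77, and the goblet cell chloride and bicarbonate channel Best2 0.96. All 18 G2 and M phase genes lay above 0 (median 0.33), but 0 were 2-fold higher. Lgr5, the stem cell receptor, was low in both groups, at 4.05 and 2.79 CPM against 25.6 in other epithelial barcodes.

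The members fell into 2 sets by Hoxb13 (ENSMUSG00000049604), a split chosen after its values were seen. Among members with at least 5000 UMIs, 468 had at least 1 Hoxb13 UMI per 10000, the Hoxb13-high members, and 256 had fewer, the Hoxb13-low members. The 191 members with fewer UMIs were too shallow to place. Median depth was 27339.5 and 27989.5 UMIs. Reg4 itself differed, with a median of 32.7 UMIs per 10000 in the Hoxb13-high and 144 in the Hoxb13-low members. Of 10694 genes compared, 385 were at least 2-fold higher in the Hoxb13-high members (3.6%) and 459 at least 2-fold lower (4.29%).

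The Hoxb13-low members carried C1qa, Sct and anterior members of the Hoxb cluster. Sct had a UMI in 239 of 256 (93.4%, 89.6 to 96.1%) and in 121 of 468 Hoxb13-high members (25.9%, 21.9 to 30.1%). C1qa had one in 208 of 256 (81.2%, 75.9 to 85.8%) and in 40 of 468 (8.55%, 6.18 to 11.5%), at 303 and 4.16 CPM. Both genes were detected together in 206 of the 256 (80.5%) and in 14 of the 468 (2.99%). The same Hoxb13-low members had a UMI of C1qb or C1qc beside C1qa in 21 barcodes and of Ptprc in 8 (3.13%, 1.36 to 6.06%), against 9 for Ptprc in the Hoxb13-high members (1.92%). Thus C1qa was detected without its partner chains and without the leukocyte marker in most of these barcodes. Hoxb8 stood at 40.3 CPM in the Hoxb13-low and 1.82 in the Hoxb13-high members, Hoxb4 at 40.0 and 1.24, and Hoxb3 at 23.2 and 0.584. The low-Reg4 goblet barcodes were divided in the same way, with Hoxb8 at 31.9 CPM in Hoxb13-low and 2.45 in Hoxb13-high ones, so that this division was not particular to the members.

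Some secreted products differed between the sets and others were close. Of 27 genes of goblet mucus and secreted proteins 4 were 2-fold higher and 9 lower in the Hoxb13-high members (median −0.38, with all genes at −0.02). Agr2, a folding enzyme needed for Muc2, stood at 16644 CPM in Hoxb13-high and 14862 in Hoxb13-low members, and the kallikrein Klk1 at 2881 and 3246. Hoxb13-low members had more Retnlb (19491 against 1280 CPM), Sct (1273 against 35.1), Spink4 (55601 against 25749), Muc2 (13878 against 6604) and Papss2, which makes the sulfate donor (192 against 68.9). Tff2, a trefoil peptide of gastric mucous neck cells, was at 42.8 against 0.365 CPM, and A4gnt, which caps mucin sugars with alpha-linked N-acetylglucosamine, at 116 against 14.7. Hoxb13-high members had more of the pentraxin Mptx1 (29729 against 2990 CPM), Sval1 (4805 against 283), the protease inhibitor Slpi (407 against 12.9), Cma1 (154 against 6.39), Cldn14 (108 against 7.04), Lix1 (44.5 against 1.70) and Lyz1 (55.4 against 1.43). Some glycosyltransferases differed between the sets, though of 23 genes of O-glycosylation and sulfation 5 were 2-fold higher and 4 lower in the Hoxb13-high members (median −0.18). St3gal6, a sialyltransferase, stood at 496 CPM in Hoxb13-high and 41.1 in Hoxb13-low members, B3gnt7 at 278 and 32.2 and Gcnt1 at 32.2 and 1.96, while the sialyltransferase St3gal1 stood at 0.657 and 25.6. Best2 was at 161 and 32.3 CPM. Mki67 (171 CPM in each), Atoh1 (333 and 306) and Kit (61.3 and 75.1) were close in both sets. In low-Reg4 goblet barcodes, Hoxb13-high and Hoxb13-low, Mptx1 stood at 27384 and 3918 CPM, Retnlb at 2473 and 9226, St3gal6 at 330 and 96.3 and B3gnt7 at 237 and 52.3. These 4 genes thus differed with Hoxb13 in the same direction outside the members. Spink4 (18032 and 13724 CPM) and Papss2 (64.7 and 27.8) differed in the opposite direction there.

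**Figure D3:**
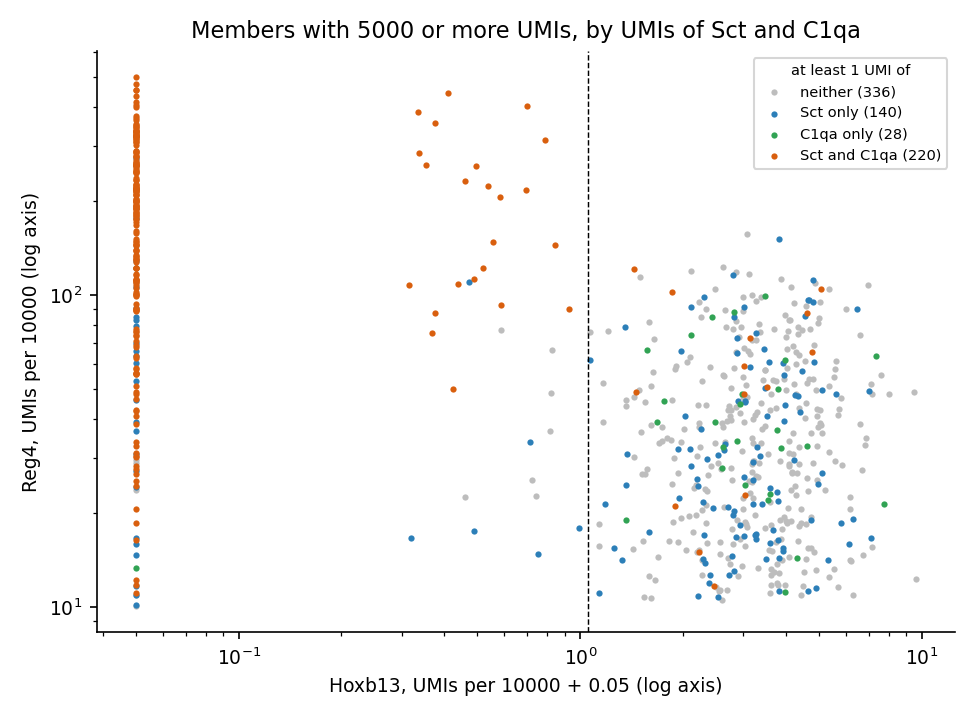
Each point is a member with at least 5000 UMIs, with Hoxb13 and Reg4 in UMIs per 10000 on its axes, marked by whether a Sct or C1qa UMI was found: neither in 336, Sct alone in 140, C1qa alone in 28 and both in 220. The members with both lie at low Hoxb13, 206 of the 220 under 1 per 10000, and reach the highest Reg4.

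Setting Reg4-high against low-Reg4 goblet barcodes within each Hoxb13 range gave different ratios for several genes. At Hoxb13 of at least 1 per 10000, 468 members stood against 277 goblet barcodes, and of 10689 genes 178 were 2-fold higher (1.67%) and 233 lower (2.18%). At under 1 per 10000, 256 stood against 483, and of 10972 genes 148 were higher (1.35%) and 391 lower (3.56%). C1qa had a log2 ratio of −0.96 (−1.49 to −0.45) in the Hoxb13-high and 6.24 (5.88 to 6.61) in the Hoxb13-low comparison. Gal3st2c had 0.35 and 4.59, Tff2 0.13 and 4.30, and Papss2 0.09 and 2.79. The counting intervals of these 4 genes did not overlap between the comparisons, and no test of the difference over samples was possible. The value of Tff2 in the Hoxb13-high comparison rested on 5 against 3 UMIs, with an interval from −2.23 to 2.82. The contrast in Reg4, which the rule set, also differed, with log2 ratios of 3.62 in the Hoxb13-high and 7.44 in the Hoxb13-low comparison.

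Genes of mature mucus and surface cells were lower chiefly in the Hoxb13-high comparison. There Zg16 stood at 1395 against 21237 CPM (−3.93), Tff3 at 2848 against 8148 (−1.52) and Krt20 at 3.50 against 103 (−4.88). In the Hoxb13-low comparison the same genes had ratios of −0.71, 1.39 and −1.49, so that Tff3 had the opposite sign. Fcgbp, which the goblet rule used, stood at −2.50 and 0.94 and is given as a description. The BMP target Id1 stood at −2.52 and −0.35. Of the surface colonocyte genes, 14 of 19 were 2-fold lower in the Hoxb13-high members (median −1.76, with all genes at 0.05), and in the Hoxb13-low ones 3 of 16 were higher and 3 lower (median 0.44, with all genes at −0.07). Of goblet mucus genes, 9 of 27 were 2-fold lower and 0 higher in the first and 2 lower and 4 higher in the second, with the rule's Muc2, Fcgbp and Clca1 in that list.

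Proliferation and stem cell lists leaned up in the Hoxb13-high comparison, within 2-fold for all but 1 gene. All 18 G2 and M phase genes (median 0.66), all 17 S phase genes (median 0.69) and all 15 stem cell genes (median 0.39) were above 0 there. In the Hoxb13-low comparison 14 of 18, 15 of 17 and 9 of 16 were below 0 (medians −0.09, −0.25 and −0.06). Of all genes compared, 58.1% lay above and 41.9% below 0 in the Hoxb13-high comparison (median 0.05), and 40.1% above and 59.9% below 0 in the Hoxb13-low one (median −0.07). In the latter the G2 and M phase and stem cell medians were near that of all genes. Mki67 had ratios of 0.69 (0.58 to 0.80) and 0.16 (0.06 to 0.26).

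Several genes had the same sign in both comparisons. In the Hoxb13-low comparison some of these rested on few UMIs: Cma1 on 49 in 11 of 256 members, with a UMI in 4.30% of them and 3.11% of goblet barcodes, and Chodl on 14 against 6 UMIs. Lyz1 had only 11 UMIs in the Hoxb13-low members. Cma1 stood at 2.73 and 2.52 (1.71 to 3.39), Chodl at 2.29 and 2.30 (0.83 to 3.96), Lyz1 at 2.15 and 2.53 (with a UMI in 14.1% and 3.91% of members), Sct at 1.24 and 3.29, Dll1 at 0.93 and 1.56 and Dll4 at 0.67 and 0.77. Spink1 stood at −4.10 and −3.87, Sprr2a3 at −2.93 and −2.47, Areg at −2.42 and −2.52, Saa1 at −5.49 and −1.88 and Reg3g at −0.87 and −2.44. The Notch ligands Dll1 and Dll4 were thus higher in the Reg4-high barcodes of both Hoxb13 ranges, by less than 2-fold except for Dll1 in the Hoxb13-low one.

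Clustering the members without the rule's genes gave 8 clusters, which differed in Hoxb13, cell cycle genes, surface and immediate-early genes and depth. Clusters 1 (222 barcodes), 5 (88), 6 (111) and 8 (66) had 325 to 343 CPM of Hoxb13. Cluster 1 was led by Meg3, B3gnt7, Chodl and Dlk1, and cluster 5 by mitotic genes such as Nusap1, Aspm and Plk1, with 608 CPM of Mki67. Cluster 8 was led by the replication licensing genes Mcm3, Mcm5 and Mcm6 with Uhrf1. Cluster 6 held Spink1 at 690 CPM and Zg16 at 5960, with the immediate-early genes Atf3, Fosb, Egr1 and Fos.

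Clusters 4 (182 barcodes), 2 (88) and 7 (43) held 16.4, 39.8 and 121 CPM of Hoxb13 and 1109, 770 and 3256 of Sct. Cluster 4 had a median of 201 Reg4 UMIs per 10000, with 25773 CPM of Retnlb and 364 of C1qa, and was led by Tff2 and St3gal1. Cluster 2 was led by Dmbt1, a mucosal scavenger protein, and Reg3b, and had 451 CPM of Mki67 and 21.4 of Lgr5. Cluster 7 had 20720 CPM of Zg16 and 5276 of the colonocyte carbonic anhydrase Car1, at a median of 4738 UMIs. Cluster 3 (115 barcodes) was shallow, with a median of 1515 UMIs, was led by the fibroblast genes Ogn, Aspn and Sparc, held 857 CPM of Dcn and 9855 of Igkc, and had at least 2 non-epithelial UMIs in 37 barcodes. The clusters were described by their genes and were given no cell type names.

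**Figure D4:**
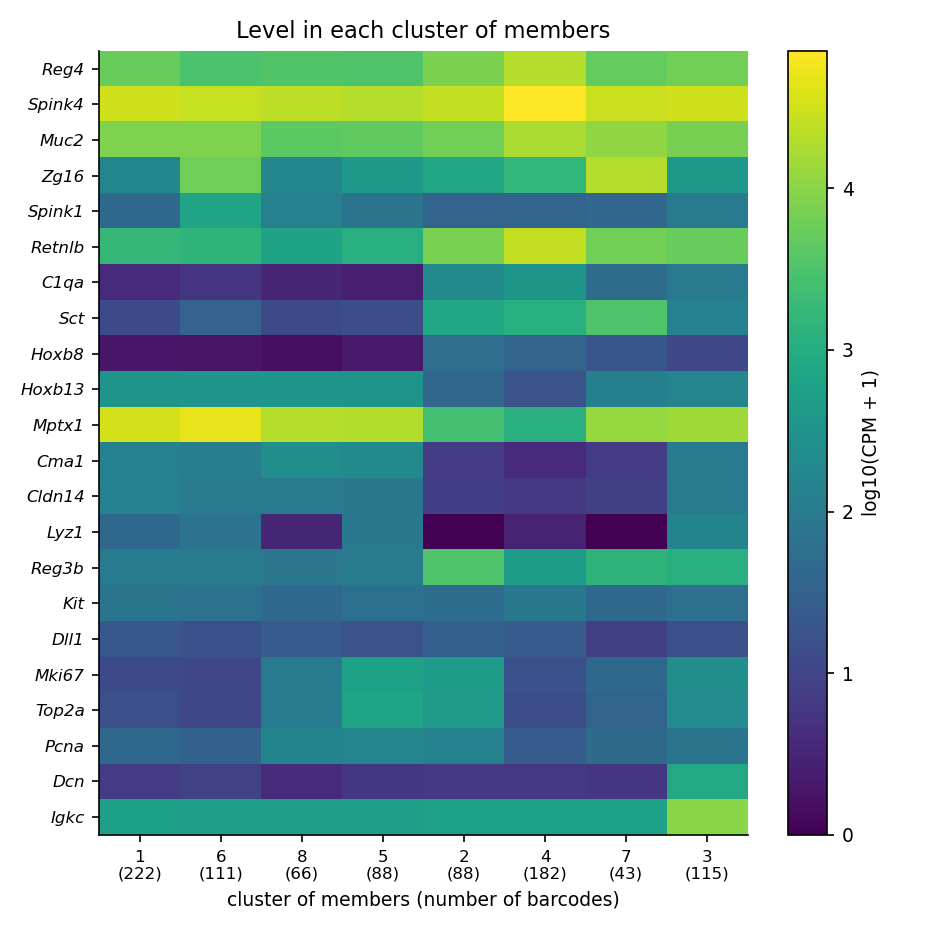
The heat map gives log10 of CPM plus 1 for listed genes (rows) in the 8 clusters of members (columns, ordered 1, 6, 8, 5, 2, 4, 7 and 3). Hoxb13 lies at 325 to 343 CPM in clusters 1, 6, 8 and 5 and at 16.4 to 121 in clusters 2, 4 and 7, where Sct is high.

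Along Reg4 itself, some genes went 1 way and others did not. From barcodes with under 1 Reg4 UMI per 10000 (743 over the goblet limit), through 1 to 10 (389), 10 to 30 (357) and 30 to 100 (337), to 100 and over (221), Spink4 went from 13574 to 17598, 20132, 28790 and 71809 CPM. Gal3st2c went from 17.6 to 60.4, 92.1, 140 and 234 CPM, and Spink1 from 1501 to 1319, 259, 78.1 and 25.5. All 3 genes thus went 1 way over the 5 ranges. Hoxb13 was highest in the middle ranges, with 51.7, 185, 287, 255 and 37.4 CPM, and Cma1 likewise, with 2.84, 19.1, 85.9, 165 and 16.0. C1qa was at 9.77, 4.85, 11.1, 42.3 and 367 CPM.

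Against other epithelial barcodes, which include the sorted stem cells, the members had more of goblet, vesicle release and glycosylation genes. Of 14143 genes, 888 were at least 2-fold higher (6.28%) and 2839 at least 2-fold lower (20.1%). The lower ones included 16 of 17 immune and 12 of 13 fibroblast and muscle genes. Summed immune markers stood at 2578 CPM in the members and 40604 in the other epithelial barcodes. At least 2 UMIs of non-epithelial markers were found in 6.78% and 21.7% of these groups. The part of other cells' RNA in these ratios was not tested. Of 27 goblet genes, 3 of which define the goblet rule that the other epithelial barcodes failed, 25 were 2-fold higher (median 4.74). Of 22 genes of secretion and vesicle release 14 were higher, and of 24 genes of O-glycosylation and sulfation 20. Secretory transcription factors were mixed, with 10 of 26 higher and 7 lower (median 0.16), and of 33 endoplasmic reticulum folding genes 9 were higher. Best2 stood at 114 against 0.779 CPM, Kit at 66.2 against 10.3 and Dll1 at 20.4 against 2.58. Of 21 surface colonocyte genes 18 were 2-fold lower, as were 12 of 19 stem cell genes. Notch1, the receptor, stood at 5.07 against 33.8 CPM.

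Shares of barcodes with a UMI were set at equal depth by thinning each barcode to 2000 UMIs, which left 787 members, 865 goblet, 3143 other epithelial and 606 non-epithelial barcodes. Kit was then detected in 13.7% of members (11.4 to 16.3%), 11.1% of goblet (9.08 to 13.4%), 2.42% of other epithelial and 1.49% of non-epithelial barcodes. Unthinned, 64.4% of members had a Kit UMI. Dll1 was detected in 4.83% of members (3.44 to 6.57%), 1.62% of goblet (0.888 to 2.70%) and 0.825% of non-epithelial barcodes, and unthinned in 29.4% of members. Mki67, a marker of cycling cells, was found in 13.5% of members (11.2 to 16.1%), 13.8% of goblet (11.5 to 16.2%), 21.9% of other epithelial and 2.48% of non-epithelial barcodes, and unthinned in 35.1% of members. Sct was found in 25.9%, 6.94%, 1.65% and 2.48% of the 4 groups in that order, and C1qa in 13%, 0.809%, 2.16% and 11.4%.

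In the small intestine the same rule found barcodes rich in Paneth cell products. It was met by 132 of 2756 barcodes there (4.79%, 4.02 to 5.65%), with 296551 CPM of the Paneth cell defensin Defa24 and 36163 of Lyz1, against 76452 and 10891 in 320 low-Reg4 goblet barcodes. In these barcodes Zg16 had a log2 ratio of −5.32 and Muc2 of −2.11, and Hoxb13 and Cma1 had 0 UMIs. C1qa and Sct, higher in the members in the large intestine, stood at −2.58 and −1.16. In the organoid libraries 3 of 540 barcodes grown alone and 20 of 1037 grown in coculture met the rule. Reg4 over whole libraries was at 1353 CPM in large and 216 in small intestinal cells, 24.3 in organoids alone and 147 in coculture, each from 1 library. In the Visium sections the order was the other way, with 188 and 180 CPM in large and 654 and 473 in small intestine.

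The large intestinal Visium sections gave a second assay that the rule did not use. A Visium spot covers several cells. After thinning to 2000 UMIs, 489 of 2084 spots in section 1 (23.5%) and 557 of 2166 in section 2 (25.7%) had a Reg4 UMI, with median depths of 17754 and 18755 UMIs before thinning against 19811 and 20332 in the other spots. Of 10260 genes measured, 4768 were higher in Reg4 spots in both sections (46.5%) and 2595 lower in both (25.3%), and at least 2-fold in both sections 92 were higher (0.897%) and 157 lower (1.53%). The sections are technical duplicates, so the spread between them is not that between animals.

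Spots with Reg4 had more of proliferation, stem cell and Notch pathway genes and less of surface genes. All 17 G2 and M phase genes (median log2 ratios 0.84 and 0.97 in sections 1 and 2), all 14 S phase genes (0.98 and 0.90), all 13 Notch pathway genes (0.42 and 0.61) and 13 of 15 stem cell genes (0.78 and 0.93) were higher in both sections. All 21 surface colonocyte genes were lower in both (−1.12 and −1.42). Of 11 deep crypt secretory and niche genes 6 were higher in both and 4 lower in both, and of 6 Paneth cell genes 1 was higher and 4 lower. Mki67 was at 24.3 UMIs per 100 spots with Reg4 against 11.9 without in section 1, and at 25.5 against 9.94 in section 2. Spink4 was at 1280 against 973 and 1289 against 985, and Zg16 at 629 against 1626 and 591 against 1742. Spink1 was at 183 against 494 and 177 against 540, and Krt20 at 72.8 against 187 and 59.3 against 194. Of the genes with the highest ratios in cells, 5 of 8 measured were higher and 2 lower in both sections, and of those with the lowest 8 of 10 were lower in both. The shares of the 11 and of the 8 genes that were higher lay near the 46.5% of all genes. Among fibroblast and muscle genes 10 of 13 were higher in Reg4 spots in both sections (0.30 and 0.22) and among endothelial genes 5 of 10, near the share of all genes, and the part of these cells in the spot ratios was not tested.

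Splitting the same spots by Clca1 gave opposite signs for the surface colonocyte, G2 and M phase and stem cell lists. A Clca1 UMI was present in 1790 of 2084 and 1814 of 2166 spots. Of 10259 genes, 26.7% were higher with Clca1 in both sections and 44.7% lower. All 21 surface colonocyte genes were higher with Clca1 (2.31 and 2.32), all 17 G2 and M phase genes lower (−1.17 and −1.09), 19 of 25 goblet genes higher and 11 of 15 stem cell genes lower. With Reg4, 6 of those 25 goblet genes were higher and 15 lower. The sections resembled the Hoxb13-high members in their regional genes: Hoxb13 was at 356 and 368 CPM and Hoxb8 at 0.121 and 0.0913. In these sections C1qa (105 and 125 CPM) came with C1qb (136 and 139), as it did not in the members.

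**Figure D5:**
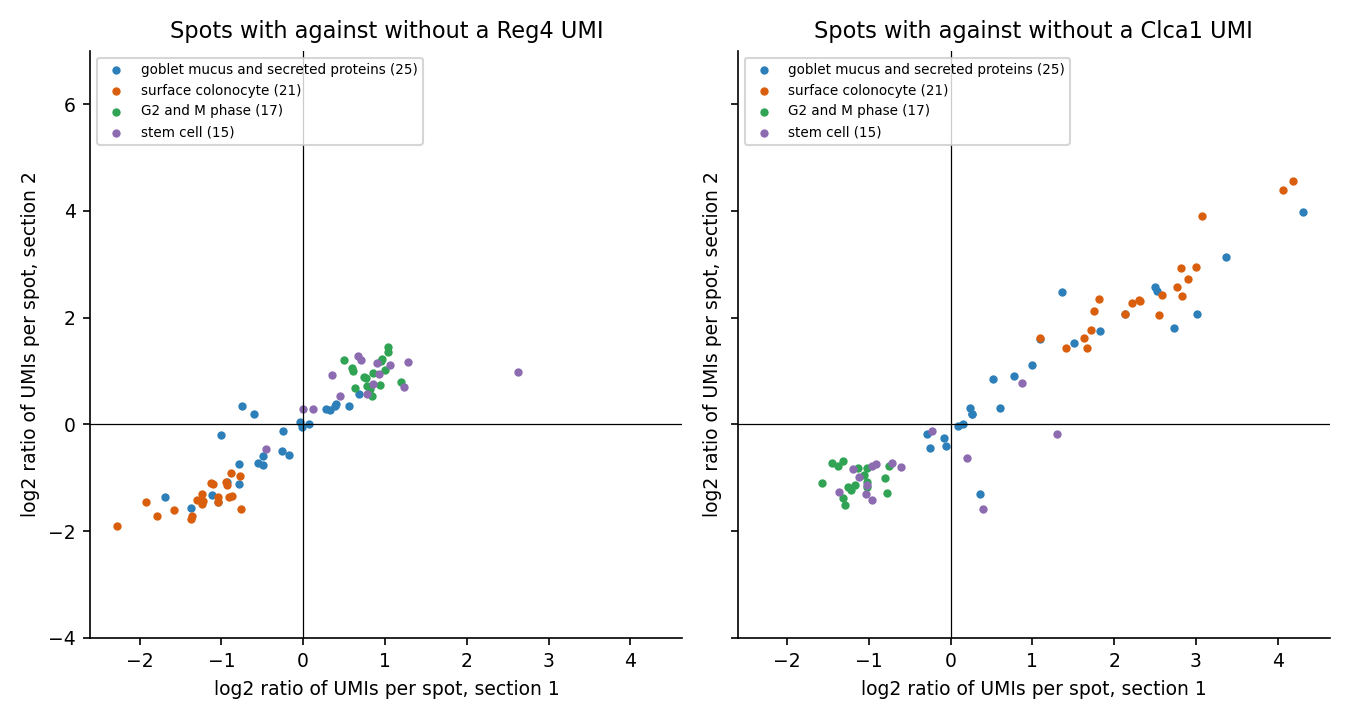
Each point is a gene of 4 lists, with its log2 ratio in section 1 on the horizontal and in section 2 on the vertical axis, for spots with over without a Reg4 UMI (left) or a Clca1 UMI (right) at 2000 UMIs per spot. Surface colonocyte genes lie below 0 in both sections on the left and above 0 on the right, and G2 and M phase genes the reverse.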

How the data were processed

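Large and small intestinal cell and Visium libraries and 2 organoid libraries were used as deposited. The deposited matrices hold counts of UMIs per gene and barcode with no normalization. Counts came from Cell Ranger 6.0.1 on mm10 per the submitters' processing notes, and for Visium from Space Ranger 1.2.1 per the file headers. The annotation release was not given in the sources used here. Members and gene lists were chosen with earlier results of these data known. Lists of C1q, homeobox and sulfation genes, the limit of 5000 UMIs and the Hoxb13 split were added after values were seen.

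UMIs were summed over the barcodes of a group and scaled to counts per 1000000 (CPM). Genes with at least 50 UMIs over both groups were compared by the log2 ratio, with a count under 3 set to 3 and an exact Poisson-ratio interval. Shares have exact Clopper-Pearson intervals. For a gene at 0 in the thinned members, 3 over 787 barcodes gives an approximate 1-sided 95% bound of 0.381%. This bound is lower than the 2-sided Clopper-Pearson limit. Named genes were those of the lists and the 15 highest and 15 lowest by log2 ratio, given 100 or more UMIs and 10% or more of barcodes with a UMI on the higher side, without rule, mitochondrial, ribosomal protein, sex-linked, GFP and unnamed genes. Some of them are not reported here. No doublets were removed in the values given, and removing those of highest Scrublet score was tried as an alternative, which took 306 barcodes, 75 of them members, and left 840 members. Members were clustered on 1000 variable genes, 20 principal components, 15 neighbours and Leiden resolution 0.5 with seed 0. On simulated counts of 12063 genes for the comparison with goblet barcodes, 95.3% of intervals held the true ratio, 99.0% of changed genes and 0.03% of unchanged genes passed 2-fold. The simulated sums were Poisson draws without variation between barcodes, and every changed gene was set past 2-fold. These shares check the calculation and are no error rates for the real counts, where few barcodes can hold most UMIs of a gene. Python 3.11.15, scanpy 1.11.5, numpy 2.4.6, scipy 1.17.1 and igraph 0.11.9 were used. Alternatives covered the limits of the rule, filters, scaling, doublets, depth, clustering and each Visium section left out. Spot positions were not used here.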

Additional observations from a re-analysis of the deposited data

Results flagged for a closer look

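Of 62 genes set side by side in the large and small intestinal cell libraries, 15 had ratios of Reg4-high to low-Reg4 goblet barcodes with opposite signs, past counting error in both and past 2-fold in at least 1. The 62 came from the named genes and others picked for description, and the share over all genes was not computed. The small intestinal barcodes that met the rule were rich in Paneth cell products, with Defa24 at 296551 CPM against 0.046 in the large intestinal members. With 1 library of each, the difference was not tested. In the small intestine C1qa had a log2 ratio of −2.58, against 3.82 in the large intestine. Sct stood at −1.16 against 2.44, Serpina9 at −1.34 against 1.60 and Cfap410 at −1.65 against 1.54. The Notch ligands Dll1 and Dll4 stood at −2.76 and −1.67 in the small and at 1.22 and 0.76 in the large intestine. Papss2 stood at −2.77 against 1.46, Gal3st2 at −1.87 against 1.01, Mptx1 at −1.495 against 0.73 and Klk1 at −1.73 against 0.29. The proliferation genes Mki67 and Top2a stood at −1.98 and −2.73 against 0.33 and 0.32, and Atoh1 at −1.46 against 0.36. Mmp7 and Ang4, which Paneth cells express, stood at 1.25 and 1.92 in the small and at −3.10 and −1.24 in the large intestine. Within 1 Hoxb13 range of the large intestine, 4 of the 15 had the sign of the small intestinal value past counting error. Among Hoxb13-high barcodes C1qa was at −0.96, Mmp7 at 1.51 and Klk1 at −0.08 (−0.10 to −0.05), and among Hoxb13-low barcodes Mptx1 was at −0.39 (−0.41 to −0.37).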

How the results depend on the processing

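No paired analysis was possible because no result comes from a test, and the replicate numbers shared by large and small intestinal Visium sections name technical duplicates. For the 47 genes recomputed under 17 alternatives, 765 of 779 log2 ratios had the sign of the value reported, 506 lay within its counting interval, 269 outside it and 4, each for a value reported past 2-fold, had the opposite sign past it. Pdlim4 (−0.14) reversed when each barcode's CPM was averaged, C1qa (−0.96) and Mmp7 (1.51) among Hoxb13-high and Hoxb13 (−0.70) among Hoxb13-low barcodes, which were chosen on Hoxb13, so that this last value is no check. The cause was not tested. The 128 genes 2-fold higher became 569 with a goblet limit of 100 per 10000 and 228 with averaged barcodes. They became 34 from at least 500 UMIs and 365 from at least 10 UMIs, where fewer or more genes were compared. The 424 lower genes became 879 with averaged barcodes, 81 and 1061 under those UMI limits and 233 among Hoxb13-high barcodes. Thinned to 5000 UMIs, the shares of members were 28.9% for Kit, 22.4% for Mki67 and 10.1% for Dll1. With a Reg4 limit of 50 per 10000 they were 16.8% for Kit and 10.1% for Mki67. The log2 ratio of Reg4 in large over small intestinal Visium sections, −1.59, was −1.44 without mitochondrial and ribosomal protein genes and −1.83 to −1.36 with a section left out. In Visium spots with Reg4, the ratio of summed G2 and M phase genes, 0.92, was 1.11 after thinning to 5000 UMIs. With either section left out, surface colonocyte genes ranged from −1.26 to −1.04 and Zg16 from −1.56 to −1.37. The number of clusters, 8, was 6 at resolution 0.3, 11 at resolution 1 and 9 with 2000 variable genes. A lone library, an unstated number of animals and a sort that enriched other cells limit every value, and depth limits genes at a few UMIs per group.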
